A study of Mus musculus with 27 samples.

Results

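The levels of 10 genes of the intestinal brush border were followed through 27 mouse RNA libraries. They were chosen by name and are the sucrase-isomaltase gene Sis, lactase Lct, maltase-glucoamylase Mgam, trehalase Treh, aminopeptidase N Anpep, dipeptidyl peptidase 4 Dpp4, glutamyl aminopeptidase Enpep, neprilysin Mme, intestinal alkaline phosphatase Alpi and villin Vil1, which makes 10 of the 22524 genes in the data. The rule that picks them uses only their names, and all 10 were found by their Ensembl identifiers. Epithelial organoids were grown from distal jejunum crypts of 9 male C57BL/6 wild-type mice aged 8 to 12 weeks, with 3 mice each from SR and SE, both specific pathogen free (SPF) facilities, and 3 raised germ-free (GF) in isolators. The mice of a facility were cohoused littermates. Each culture was kept in Matrigel, used between passages 5 and 8, and gave 1 library labelled untreated and 1 labelled as exposed to 5 ng/ml tumour necrosis factor (TNF) for 8 h. The cultures are named Z908, Z909 and Z910 (SR), Z911, Z912 and Z913 (SE), and Z917, Z918 and Z919 (GF). The reference cells were m-ICc12, an immortalised mouse line described as derived from small intestinal epithelium, with 3 pairs of libraries labelled in the same way, and mouse embryonic fibroblasts (MEF) from C57BL/6 mice, with 3 libraries labelled untreated. The m-ICc12 libraries all come from 1 line, and the sources used here do not state whether its 3 pairs or the 3 MEF libraries were grown independently, so that their p-values measure only the spread between these samples.

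The libraries held between 6071103 and 43843615 counts on genes, and 3 counts, taken as the floor of detection, corresponded to between 0.0655 and 0.522 CPM (counts scaled to the library's total with TMM factors). The treatment labels need a reservation. In each of the 12 pairs the name under which the counts were deposited gives the opposite treatment to the sample label, and Nfkbia, a rapid target of TNF signalling, lay between 150 and 225 CPM in the 9 organoid libraries labelled untreated and between 23.7 and 36.4 CPM in the 9 labelled TNF. Nfkb2, Tnfaip3 and Relb were also lower in the library labelled TNF in 9 of 9 organoid cultures and 3 of 3 m-ICc12 pairs. The paper lists these 3 among known TNF target genes. Directions are therefore given for "the library labelled TNF", without a claim on which library received it. By the deposited names, the organoid and m-ICc12 libraries labelled untreated would be the exposed ones. These are the libraries compared below with MEF, with each other and between facilities.

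The brush border is the carpet of microvilli on the apical face of absorptive enterocytes. Its membrane carries hydrolases that finish digestion next to the transporters that take up the products: disaccharidases split sugars, aminopeptidases and dipeptidyl peptidases trim peptides, and alkaline phosphatase removes phosphate groups, including that of bacterial lipopolysaccharide. Villin bundles the actin filaments of the microvillus core. These genes are switched on as cells leave the crypt, and intestinal transcription factors of the HNF4, CDX and GATA families are known to act on several of their promoters. Several of the peptidases are also abundant on the brush border of the kidney tubule.

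All 10 are protein-coding genes. On GRCm38, GENCODE places the disaccharidase genes Sis (ENSMUSG00000027790) at chr3:72888557-72967863, Lct (ENSMUSG00000026354) at chr1:128284756-128328318, Mgam (ENSMUSG00000068587) at chr6:40628831-40769123 and Treh (ENSMUSG00000032098) at chr9:44673233-44686305. The peptidase genes are Anpep (ENSMUSG00000039062) at chr7:79821803-79861059, Dpp4 (ENSMUSG00000035000) at chr2:62330073-62412231, Enpep (ENSMUSG00000028024) at chr3:129269175-129332720 and Mme (ENSMUSG00000027820) at chr3:63241537-63386030. The phosphatase gene is Alpi (ENSMUSG00000079440) at chr1:87098002-87101606 and the villin gene Vil1 (ENSMUSG00000026175) at chr1:74409376-74435559.

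The promoters of the 10 genes were taken from RefSeq (GRCm38.p6), which gave 12 windows of 300 bases, each reaching from 250 bases before to 50 bases after a transcript start. Mme has 3 such windows and each other gene has 1. Windows are shown for Sis, the member with the highest median level per kilobase in organoids, for Lct, the member that varied most between cultures, for Alpi, which was at or near 0 counts outside organoids, and for Mme (the window farthest upstream), the member that was lower in organoids than in m-ICc12 cells. Capitals mark matches to the 5 motifs searched on both strands. The motif used for the HNF4 factors was CAAAGTCCA. The caudal (CDX) factors were represented by the letters CAATAAA and the GATA factors by AGATAA, with the related form of a GATA site, TGATAA, searched as well. The last motif was the core of the TATA box, TATAAA, which in Sis overlaps its own reverse complement.
Sis, chr3:72967814-72968113, minus strand: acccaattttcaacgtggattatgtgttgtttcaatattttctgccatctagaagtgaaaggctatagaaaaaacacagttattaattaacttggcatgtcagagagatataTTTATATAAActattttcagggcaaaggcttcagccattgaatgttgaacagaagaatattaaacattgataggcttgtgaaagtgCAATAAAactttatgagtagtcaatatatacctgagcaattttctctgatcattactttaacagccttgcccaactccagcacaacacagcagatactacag
Lct, chr1:128328269-128328568, minus strand: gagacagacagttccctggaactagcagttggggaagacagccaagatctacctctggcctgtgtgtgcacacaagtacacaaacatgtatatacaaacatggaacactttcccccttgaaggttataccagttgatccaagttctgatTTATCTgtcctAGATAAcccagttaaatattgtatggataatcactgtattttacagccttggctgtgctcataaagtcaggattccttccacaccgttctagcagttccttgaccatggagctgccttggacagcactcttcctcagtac
Alpi, chr1:87101557-87101856, minus strand: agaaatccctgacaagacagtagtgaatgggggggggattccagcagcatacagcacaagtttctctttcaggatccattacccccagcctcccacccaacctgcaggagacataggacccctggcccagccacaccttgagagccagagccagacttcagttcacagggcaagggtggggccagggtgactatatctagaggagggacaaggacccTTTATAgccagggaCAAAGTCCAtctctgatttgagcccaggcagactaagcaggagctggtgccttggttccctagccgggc
Mme, chr3:63294961-63295260, plus strand: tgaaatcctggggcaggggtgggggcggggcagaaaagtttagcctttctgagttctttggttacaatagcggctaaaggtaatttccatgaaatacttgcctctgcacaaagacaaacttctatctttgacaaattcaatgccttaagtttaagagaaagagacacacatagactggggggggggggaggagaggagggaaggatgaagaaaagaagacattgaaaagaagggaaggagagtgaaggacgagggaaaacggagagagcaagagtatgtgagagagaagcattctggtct
The Sis window held CAATAAA, at position -52 relative to the start, and was the only one of the 12 windows with this motif. Over all 32851 windows of this length in the reference, 4.6% held it. CAAAGTCCA was present in Alpi (position -19) and Treh (position -71), against 0.475% of all windows. AGATAA was present in Lct, Dpp4 and Mgam (11.2% of all windows), TGATAA in none of the 12 (9.05% of all windows), and TATAAA in Alpi, Dpp4, Sis, Enpep and Mgam (13.6% of all windows). The windows of Vil1, Anpep and Mme held none of these letters. Their content of G and C was 61.7% in Vil1, 72.3% in Anpep and 46.0%, 73.0% and 72.3% in Mme, while that of Sis was 34.0% and the median of all windows 52.7%. A match of letters is a description and not a binding site.

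All 10 genes were detected in each of the 18 organoid libraries, at very unequal levels. On a scale of CPM per kilobase of exon, Sis had the highest median at 224 (range 100 to 485), followed by Vil1 at 195 (161 to 290), Mgam at 146 (98.1 to 206) and Anpep at 70.7 (17.977 to 139). Dpp4 followed at 21.8 and Enpep at 20.4, then Treh at 12.4, Alpi at 9.51 and Lct at 9.38, and Mme was lowest at 1.94 CPM per kilobase. The order was firm at some steps and not at others. Vil1 lay above Mgam, Mgam above Anpep, Anpep above Dpp4 and Lct above Mme in 18 of 18 libraries, whereas Sis lay above Vil1 in 14, Dpp4 above Enpep in 11, Treh above Alpi in 13, Enpep above Treh in 15 and Alpi above Lct in only 6. Whether these last neighbours differ beyond the spread between libraries was not tested.

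The disaccharidases were far higher in organoids than in both reference cells. Sis, which splits sucrose and isomaltose, lay between 748 and 3623 CPM in organoids (median 1673, n = 18), between 1.42 and 16.5 CPM in m-ICc12 (median 4.43, n = 6) and at 2.54, 1.63 and 4.93 CPM in MEF. The groups did not overlap. Between the libraries labelled untreated, it was higher in organoids by 9.26 on the log2 scale (SE 0.57, adjusted p = 5.25e-10) than in m-ICc12 and by 9.28 (SE 0.58, adjusted p = 6.13e-10) than in MEF. Mgam, which releases glucose from starch fragments, lay between 854 and 1795 CPM in organoids, between 0.984 and 11.3 CPM in m-ICc12, and at 1.69, 1.86 and 2.48 CPM in MEF. Its log2 differences were 8.86 (adjusted p = 3.28e-11) and 9.43 (adjusted p = 3.56e-14).

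Lct, the enzyme of milk sugar digestion, was weaker and more variable, between 12.5 and 293 CPM in organoids (median 60.1). It reached at most 0.876 CPM in m-ICc12 and stood at 0.190, 0.151 and 0.382 CPM in MEF. The log2 differences were 8.29 (SE 1.27, adjusted p = 2.86e-05) against m-ICc12 and 8.84 (SE 1.28, adjusted p = 1.50e-05) against MEF. Treh, which splits the fungal and insect sugar trehalose, lay between 8.10 and 58.9 CPM in organoids and at or under 0.327 CPM in each m-ICc12 library. In MEF it had 1, 3 and 3 counts, at or under the floor in each library. Its mean of 27.5 CPM in the 9 organoid libraries labelled untreated was 425 times the pooled MEF value, with a 95% counting interval of 206 to 1057.

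The peptidases differed among themselves in the reference cells. Anpep, an aminopeptidase of broad specificity, lay between 74.3 and 573 CPM in organoids, between 1.39 and 27.8 CPM in m-ICc12 and at 1.38, 0.652 and 0.420 CPM in MEF. Enpep, which removes acidic residues and converts angiotensin II, lay between 15.2 and 233 CPM in organoids, between 1.68 and 16.5 CPM in m-ICc12 and at 0.0950, 0.125 and 0.0382 CPM in MEF. The ranges of Enpep in organoids and m-ICc12 thus overlap, through 1 organoid library (Z919 labelled untreated) and 1 m-ICc12 library (M1 labelled TNF), while those of Anpep are separate. Dpp4, which cuts dipeptides off incretins and other peptides, lay between 88.8 and 204 CPM in organoids, at or under 0.696 CPM in m-ICc12 and at 0.332, 0.251 and 0.153 CPM in MEF. The log2 differences of organoids against m-ICc12 were 4.71 for Anpep (adjusted p = 3.84e-05), 5.75 for Enpep (adjusted p = 3.96e-06) and 8.77 for Dpp4 (adjusted p = 5.97e-12). Against MEF they were 8.52, 10.16 and 9.04 in the same order, with an adjusted p of at most 2.56e-07.

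Mme, a peptidase of neuropeptides and other small peptides, ran the other way. It lay between 7.38 and 49.997 CPM in organoids (median 22.4), at 15.2, 13.2 and 5.31 CPM in MEF, and between 220 and 367 CPM in m-ICc12 (median 308). The 6 m-ICc12 libraries all lay above the 18 organoid libraries, which overlap the MEF libraries. In organoids it was lower than in m-ICc12, with a log2 difference of -3.63 (SE 0.40, adjusted p = 7.06e-07). The log2 difference between organoids and MEF was 1.04 (95% interval -0.10 to 2.18, adjusted p = 0.0997), which passed the threshold neither way. With the other library of each organoid culture it was 1.20 (adjusted p = 0.0495), and with the libraries of a culture summed 1.16 (adjusted p = 0.0445).

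Alpi, the differentiation marker that dephosphorylates luminal substrates, lay between 6.24 and 99.8 CPM in organoids (median 22.2). It had 0, 0 and 1 counts in the m-ICc12 libraries labelled untreated, 1, 2 and 1 in those labelled TNF and 2, 0 and 1 in MEF, none above the floor. The organoid mean of 31.3 CPM was 3814 times the pooled m-ICc12 value (95% counting interval 685 to 150650, since it rests on 1 count, and 1271 times the value that 3 pooled counts would give) and 1129 times the MEF value (386 to 5476). Vil1 lay between 573 and 1030 CPM in organoids, between 17.3 and 41.1 CPM in m-ICc12 and at 1.09, 0.878 and 1.83 CPM in MEF. It was higher in organoids than in m-ICc12 by 4.53 on the log2 scale (SE 0.29, adjusted p = 7.88e-10), and than in MEF by 9.27 (SE 0.31, adjusted p = 1.93e-13). The 3 cell types are in separate ranges for villin.

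**Figure D1:**
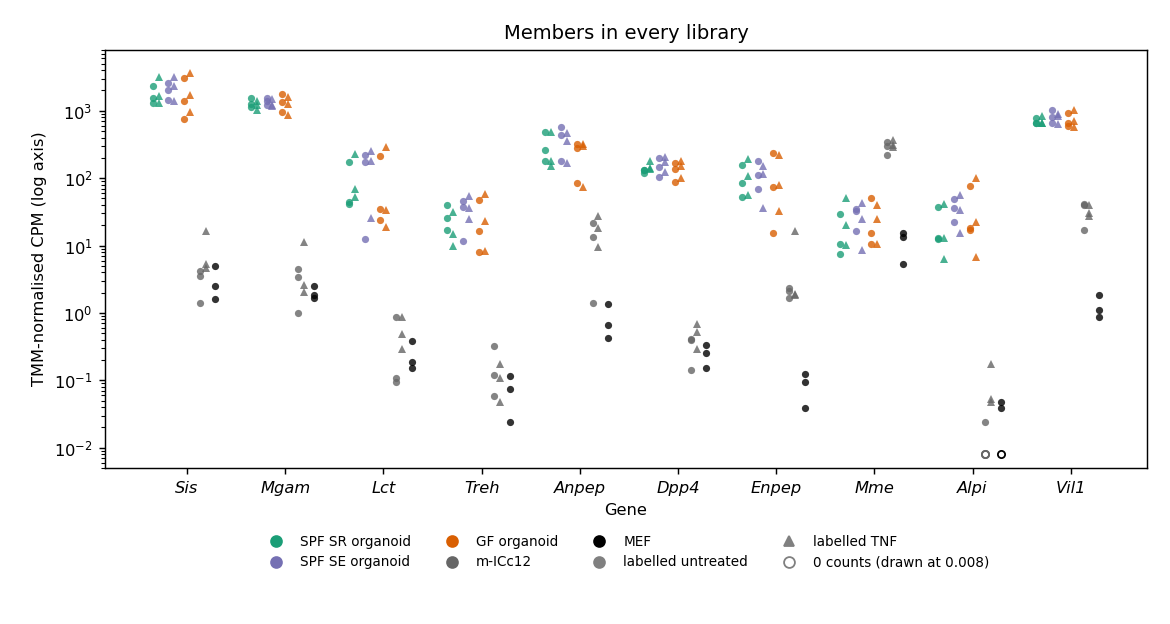
TMM-normalised CPM of the 10 genes (log axis) in each of the 27 libraries, by origin of the cells (colour) and treatment label (symbol). Each point is 1 library, and open symbols mark 0 counts. In 8 genes all organoid libraries lie above all others, a separation whose share over all genes is not given here. In Enpep 1 organoid library lies below 1 m-ICc12 library, and in Mme the m-ICc12 libraries, between 220 and 367 CPM, lie on top.

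In the edgeR quasi-likelihood test on libraries labelled untreated, 9 of the 10 genes passed an adjusted p of 0.05 as higher in organoids than in m-ICc12 and 1, Mme, as lower. Of all 12962 genes tested, 31.6% were called higher and 29.3% lower in that comparison. Against MEF, 9 of 10 were called higher and 0 lower, beside 34.6% and 32.6% of 13144 genes. The median log2 difference of all genes was 0.03 in either comparison. So large a share of the transcriptome differs between these cells that a call alone says little about a gene, and the sizes are more informative. The differences of Sis, Mgam, Dpp4 and Alpi came to 8.77 or more on the log2 scale in both comparisons, that of Alpi being a fitted value against groups at or under the floor, which depends on the prior count. In bulk libraries, fewer cells of a type and less RNA per cell cannot be told apart.

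Between the 2 reference cells, 4 of the 7 genes that could be tested were higher in m-ICc12 than in MEF and 0 were lower, beside 28.1% and 31.2% of 12830 genes. These were Vil1 (log2 difference 4.67, adjusted p = 7.49e-07), Mme (4.63, adjusted p = 7.37e-08), Enpep (4.44, adjusted p = 0.00165) and Anpep (3.81, adjusted p = 0.00141). The cell line thus carried the transcripts of villin and of 3 peptidases. Sis, Mgam and Dpp4 did not pass, with log2 differences of -0.07 (95% interval -1.47 to 1.34), 0.51 (-0.99 to 2.01) and 0.30 (-2.16 to 2.76), and Lct, Treh and Alpi were below the expression filter in both cells.

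**Figure D2:**
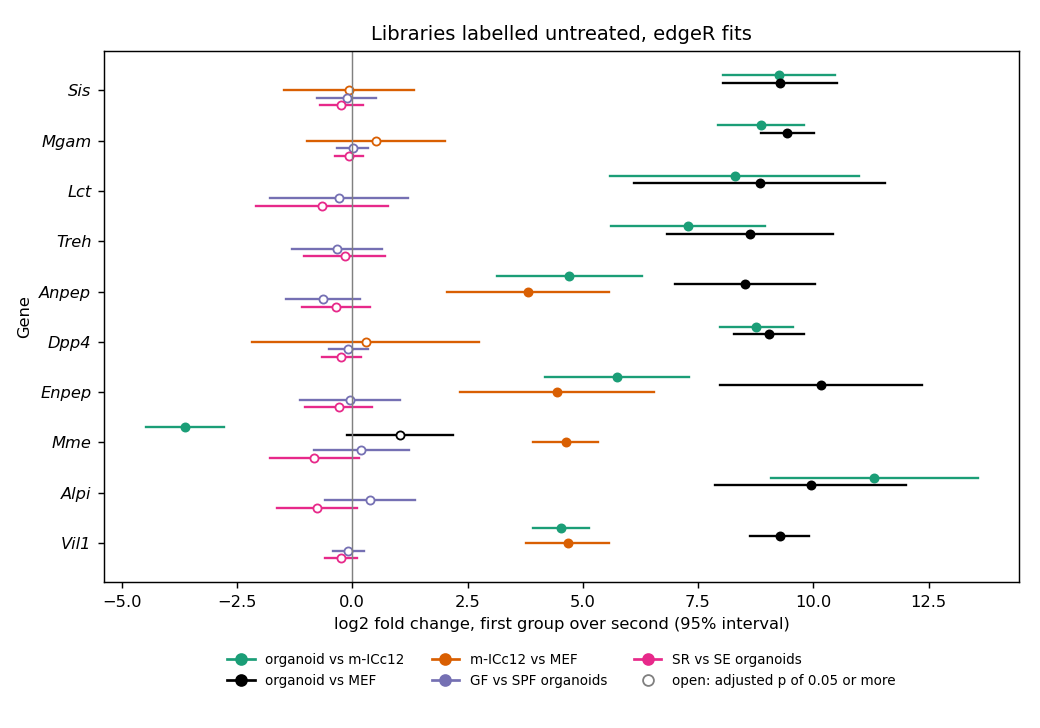
Log2 fold changes (first group over second, horizontal axis) of the 10 genes between libraries labelled untreated, with 95% intervals from edgeR; filled points have an adjusted p under 0.05. Organoids over MEF lie between 8.52 and 10.16 for 9 genes, Mme lies below 0 for organoids over m-ICc12, and all intervals between facilities include 0.

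Over the 9 m-ICc12 and MEF libraries Sis had between 59 and 176 counts, a 2.98-fold range. The totals varied 7.22-fold, and 2.16-fold without M1 labelled TNF. The library with the fewest reads, M1 labelled TNF with 6071103 counts, had 95 counts of Sis and so the highest CPM, 16.5. It also had the highest CPM of Mgam, Enpep, Anpep, Dpp4, Mme and Alpi (1 count) among the 6 m-ICc12 libraries, so that the upper ends of the m-ICc12 ranges of these genes come from this shallow library. Without it, Sis reached at most 5.28 CPM and Enpep 2.37 CPM in m-ICc12, and the ranges of Enpep in organoids and m-ICc12 no longer overlapped. The ratio of Sis to Mgam counts lay between 0.878 and 2.62 in the reference cells (median 1.46) and between 0.777 and 2.25 in organoids (median 1.35). Whether these counts arose in the reference cells themselves was not tested.

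The labelled cell types were compared with marker genes. Organoids expressed all 10 absorptive enterocyte markers, with a sum between 3014 and 10452 CPM, and the stem, Paneth, goblet and enteroendocrine lists, with fibroblast sums of at most 32.4 CPM and leukocyte sums of at most 19.9 CPM. Fibroblast sums were 1843 to 3003 CPM in m-ICc12 and 5765 to 6945 CPM in MEF. In m-ICc12, 5 of the 9 fibroblast genes were at or under the floor. Leukocyte sums were 74.9 to 144 CPM in m-ICc12 and 1.78 to 3.26 CPM in MEF. In m-ICc12 cells several intestinal genes were close to absent. Cdx2, a master regulator of intestinal identity, was at or under 0.720 CPM there against 146 to 238 CPM in organoids, Cdx1 at or under 2.96 CPM against 362 to 576 CPM, and Gata4 at or under 0.348 CPM against 26.4 to 105 CPM. Hnf4a, at 76.0 to 191 CPM in m-ICc12 and 982 to 1177 CPM in organoids, was retained at a lower level.

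Markers of the kidney tubule were present in the same cell line. The summed level of the 12 kidney genes was 1065 to 1448 CPM in m-ICc12, 557 to 798 CPM in organoids and 284 to 373 CPM in MEF. Of the 8 list genes tested between organoids and m-ICc12, 6 were lower and 2 higher in organoids, beside 29.3% and 31.6% of all genes tested. Cdh16, the kidney-specific cadherin, lay between 584 and 868 CPM in m-ICc12 and at or under 1.43 CPM in organoids, and Pax8 between 258 and 339 CPM against 1.72 to 7.04 CPM. Pax2 lay between 38.0 and 114 CPM against at most 0.0888 CPM. Slc22a6, Slc12a1 and Aqp2 had 0 counts in all 6 m-ICc12 libraries. In organoids the sum came mainly from Aqp1 (429 to 653 CPM) and Cubn (5.90 to 234 CPM). Among epithelial genes chosen after their values were seen, Krt8 lay between 1138 and 1585 CPM in m-ICc12, and Epcam between 2.06 and 7.14 CPM against 883 to 1138 CPM in organoids. Several of these markers thus differ from those of the organoids, although the line is described as derived from small intestinal epithelium. The origin of the line was not tested, and values set against m-ICc12 are differences from the cells in these libraries. The part of these features in the level of Mme, Enpep and Anpep was not tested.

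Within organoids the largest differences lay between single cultures. Averaged over the 2 libraries of a culture, Sis stood at 1306 CPM in Z908, 2720 in Z909, 1583 in Z910, 1398 in Z911, 2184 in Z912, 2894 in Z913, 1563 in Z917, 3319 in Z918 and 847 in Z919. High and low cultures occurred in each facility. Lct stood at 199, 178, 236 and 254 CPM in Z909, Z912, Z913 and Z918, and between 19.0 and 54.9 CPM in the other cultures. The same 4 cultures were the 4 highest for 9 of the 10 genes. The exception was Mgam, where Z910 ranked in the place of Z912. Z918 was highest for 8 genes, Z913 for Anpep and Dpp4, and Z919 was lowest for 7 genes. The libraries of Z918 held 30339856 and 31707594 counts and those of Z919 22898411 and 35283218.

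The genes differed in how far they varied. The coefficient of variation over the 9 cultures was 84.8% for Lct, 79.7% for Alpi, 60.9% for Enpep, 56.8% for Mme, 55.7% for Treh, 51.0% for Anpep and 42.4% for Sis. It was 22.2% for Dpp4, 18.6% for Vil1 and 17.7% for Mgam, beside a median of 16.1% over the 12104 genes tested in organoids. The highest culture exceeded the lowest 13.4-fold in Lct, 9.49-fold in Enpep and 9.41-fold in Alpi, but 1.65-fold in Vil1, the structural member, and 1.87-fold in Mgam. Of the genes tested, 96.3% varied less than Lct and 58.6% less than Vil1.

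**Figure D3:**
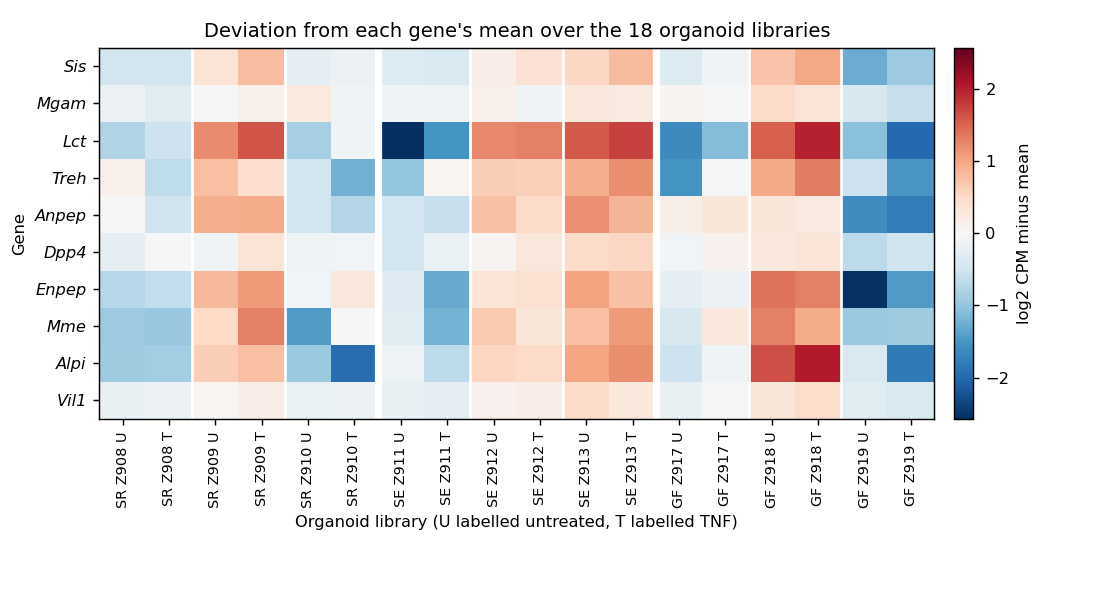
Log2 CPM of each gene minus its mean over the 18 organoid libraries (colour), with the 2 libraries of a culture side by side and white lines between cultures, wider between facilities. Cultures Z909, Z912, Z913 and Z918 are red across most genes in both libraries, Z919 is blue, and Mgam, Dpp4 and Vil1 are pale.

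The level of a culture recurred in its second library. Over the 9 cultures, log2 CPM of the library labelled untreated and that labelled TNF were related with r = 0.97 for Sis (rho = 0.95, adjusted p = 9.92e-05, exact permutation test, two-sided) and r = 0.97 for Anpep (rho = 0.95, adjusted p = 9.92e-05, exact permutation test). Of the 9 genes for which this was computed, 8 passed an adjusted p of 0.05 by Pearson's r, with r between 0.71 (Mme) and 0.97. By Spearman's rho 8 passed as well, and Mme did not (rho = 0.65, adjusted p = 0.0666, exact permutation test). Without the 2 cultures farthest from the median, r ranged from 0.62 for Mgam to 0.98 for Treh. Treh did not pass with all cultures (r = 0.61, rho = 0.73, adjusted p = 0.0849 for r, exact permutation test). For Lct the cultures form 2 ranges, 5 between 12.5 and 68.6 CPM and 4 between 171 and 293 CPM, so no r is given, and a relation cannot be tested within 5 and 4 cultures. Lct was the only gene whose largest gap between cultures took over 0.4 of its log2 range, a limit chosen after the data were seen; Treh came to 0.398 and Anpep to 0.394.

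The genes also rose and fell together across cultures. In the 36 pairs of the 9 genes without Lct, r of the culture means ranged from 0.72 (Mgam with Treh) to 0.98 (Sis with Enpep), with a median of 0.89. All 36 pairs passed an adjusted p of 0.05 by Pearson's r (largest adjusted p = 0.0237, exact permutation test) and 33 by Spearman's rho. The other 3 pairs, Mgam with Alpi, Anpep and Treh, had rho between 0.57 and 0.63. Without the 2 cultures farthest from the median of the first gene, r ranged from 0.44 to 0.96, and 26 pairs kept an unadjusted p under 0.05 (exact permutation test). The relations of the other 10 pairs rest in part on those 2 cultures; 5 of them involve Mgam. With 3 cultures to a facility, no relation could be computed within facilities. How often pairs of other expressed genes are related over these cultures is not given here. The relations are therefore not shown to be particular to these genes.

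The variation was set beside markers of other cell types, which were chosen with these values known. The summed level of 10 absorptive enterocyte markers, none of them a member, lay between 3069 and 10244 CPM over the cultures and rose with Sis (r = 0.96, rho = 0.90, adjusted p = 0.00143, exact permutation test over 9 cultures, r = 0.94 without the 2 farthest cultures). The sum of 8 markers of stem and dividing cells lay between 2161 and 3815 CPM and fell as Sis rose (r = -0.90, rho = -0.83, adjusted p = 0.00446, exact permutation test, r = -0.88 without the 2 farthest). The 8 genes varied unequally. Over the organoid libraries Olfm4 had the widest range, 129 to 1887 CPM, while Mki67, a marker of dividing cells, lay between 620 and 869 CPM. Of the 8 genes only Lgr5 was set against Sis singly, so a fall of dividing cells as a class is not shown. Lgr5, the receptor that marks crypt base stem cells, gave r = -0.94 (rho = -0.88, adjusted p = 0.00154, exact permutation test), with 242 CPM in Z919 and 104 CPM in Z918. Among 10 relations computed, those with Paneth (r = -0.04), goblet (0.08), enteroendocrine (0.53), tuft (0.15), fibroblast (-0.31), leukocyte (-0.38) and kidney genes (0.66) did not pass. How many other expressed genes are related as closely to Sis over these cultures is not given here, so the relations are not shown to be particular to these markers. Whether the cultures differed in their share of absorptive cells was not tested.

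**Figure D4:**
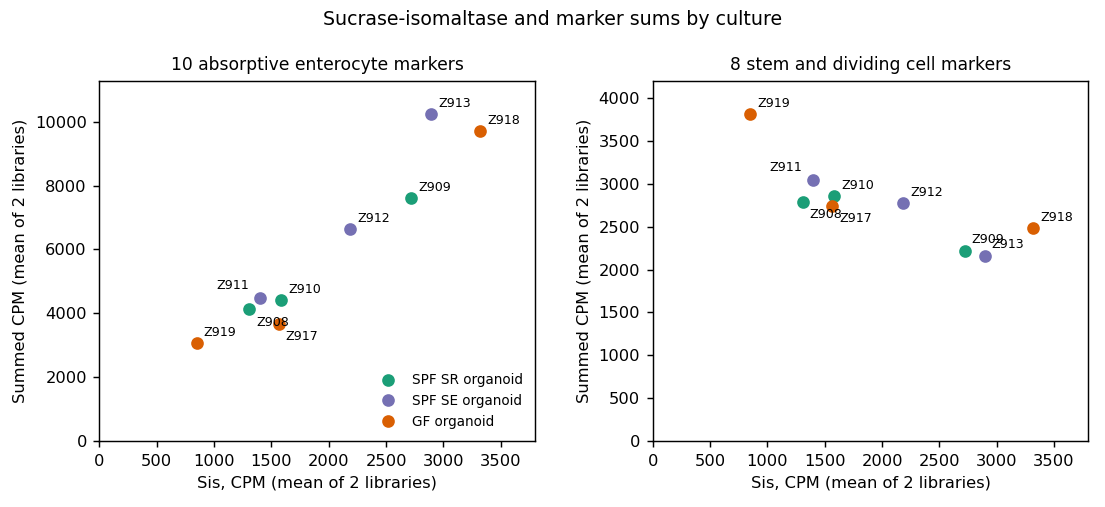
Sis (horizontal axis, CPM) against the summed CPM of 10 absorptive enterocyte markers (left) and 8 stem and dividing cell markers (right); each point is the mean of the 2 libraries of 1 organoid culture, coloured by facility. The absorptive sum rises from 3069 CPM in Z919 to 10244 CPM in Z913, and the stem and dividing sum is highest in Z919 with 3815 CPM.

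Beyond the members, the genes whose log2 CPM followed each of them most closely over the 18 organoid libraries were named as a description among 11590 genes with a mean of at least 1 CPM; the 2 libraries of a culture share their source. Among the 3 genes closest to Sis were the gene model Gm10639 (r = 0.96) and Slc2a2, the glucose transporter GLUT2 (0.95). For Lct these were Gpd1 (0.95), Ephx2 (0.94) and Pbld2 (0.94), and for Treh Ces2c (0.92), Exoc3l4 (0.89) and the glucose transporter Slc5a1 (0.89). Anpep had Mep1b (0.92) and Dpep1 (0.91), both brush border peptidases, and Slc2a2 (0.91). Dpp4 had the sialyltransferase St3gal4 (0.95), Scin (0.92) and Dpep1 (0.91). The other members gave Gm21885, Slc7a9 and Cubn for Enpep (0.94 to 0.95), Cyp2c29, Chp2 and Aldh3a2 for Mme (0.91 to 0.92), Ces2c, Pklr and Cyp2c29 for Alpi (0.89 to 0.90), Gm10639, Cyp2j6 and Cndp2 for Vil1 (0.94 to 0.95) and Ceacam20, Fam8a1 and Srxn1 for Mgam (0.86 to 0.89).

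None of the 10 genes was called between facilities. In libraries labelled untreated, Sis averaged 1715 ± 521 CPM in SR, 2022 ± 594 CPM in SE and 1726 ± 1166 CPM in GF (SD, n = 3). Lct averaged 85.5 ± 74.4, 136 ± 110 and 91.3 ± 107 CPM, and Vil1 700 ± 66.6, 832 ± 188 and 726 ± 170 CPM in the same order. The groups overlapped for these genes. Between GF and SPF organoids, 0 of 10 members were called by edgeR, beside 0.0325% of 12315 genes, 0 had an unadjusted p under 0.05, and DESeq2 called 0. Of all genes, 491 had an unadjusted p under 0.05 in edgeR and DESeq2 called 21. Without the GF culture Z918, 5 members had an unadjusted p under 0.05 and 0 were called (smallest adjusted p = 0.899, edgeR). The share of all genes at an unadjusted p under 0.05 in that fit is not given here. The log2 differences (GF over SPF) lay between -0.63 for Anpep (95% interval -1.44 to 0.17) and 0.39 for Alpi (-0.59 to 1.37), with -0.13 for Sis (-0.76 to 0.51), 0.01 for Mgam (-0.33 to 0.34) and -0.08 for Vil1 (-0.42 to 0.25). For Lct the interval ran from -1.78 to 1.20, which includes differences of over 1 log2 unit in either direction.

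Between SR and SE, 0 of 10 members were called, beside 0.0% of 12219 genes, 0 members had an unadjusted p under 0.05 and DESeq2 called 0 of them. Of all genes, 486 had an unadjusted p under 0.05 in edgeR and DESeq2 called 8. The count of members at an unadjusted p under 0.05 depended on single cultures, being 7 without Z911 and 6 without Z909. In either case 0 were called (smallest adjusted p = 0.208, edgeR, without Z909), and the share of all genes at that unadjusted p is not given here. All 10 log2 differences (SR over SE) were below 0, from -0.06 for Mgam (95% interval -0.37 to 0.24) to -0.82 for Mme (-1.78 to 0.14), with -0.24 for Sis (-0.69 to 0.22) and -0.76 for Alpi (-1.63 to 0.11). Since the genes move together across cultures, these are not 10 separate observations. Facility, litter and housing cannot be told apart, as each facility contributed 1 group of littermates.

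Differences by treatment label were small in organoids. In the comparison without regard to culture, 0 of 10 were called by edgeR and 0 by DESeq2, beside 1.39% of 12104 genes called by edgeR, and 0 had an unadjusted p under 0.05. Of all genes, DESeq2 called 216, and 1072 had an unadjusted p under 0.05 in edgeR. The 2 libraries of a culture come from the same mouse and were compared within cultures by adding the culture as a block to the fit. With this block 1 of the 10 was called, Sis, beside 3.28% of all genes. An unadjusted p under 0.05 (edgeR) was reached by 5 of the 10, beside 1674 of the 12104 genes.

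Sis was higher in the library labelled TNF in 7 of 9 cultures. In CPM it stood at 1309 and 1303 in Z908, the untreated label first, at 2303 and 3137 in Z909, 1532 and 1634 in Z910, 1421 and 1375 in Z911, 2034 and 2334 in Z912, 2610 and 3178 in Z913, 1413 and 1712 in Z917, 3015 and 3623 in Z918, and 748 and 945 in Z919. The exceptions, Z908 and Z911, differed by little. The log2 difference was 0.20 with the culture as a block (SE 0.042, adjusted p = 0.00199) and 0.23 without it (SE 0.24, adjusted p = 0.904). Leaving out each culture in turn gave blocked values between 0.17 and 0.23 with an adjusted p between 0.000359 and 0.0146. The difference is far smaller than that between cultures, which spanned 3.92-fold.

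Other members came near the threshold with the block and did not pass. Dpp4 was higher in the library labelled TNF in 9 of 9 cultures, by 0.19 on the log2 scale (95% interval 0.06 to 0.31, adjusted p = 0.108). Lct was higher in 8 of 9 (0.29, 0.07 to 0.51, adjusted p = 0.165). Mgam was lower in 8 of 9, with a log2 difference of -0.13 (-0.21 to -0.04, adjusted p = 0.0904), and Anpep lower in 7 of 9 (-0.18, -0.29 to -0.06, adjusted p = 0.102). The related disaccharidases Sis and Mgam therefore had differences of opposite sign; the contrast between them was not tested. For Vil1 the blocked difference was 0.02 (-0.07 to 0.10), and for Treh, Enpep, Mme and Alpi the signs were mixed, with 4, 6, 5 and 5 of 9 cultures higher in the library labelled TNF.

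**Figure D5:**
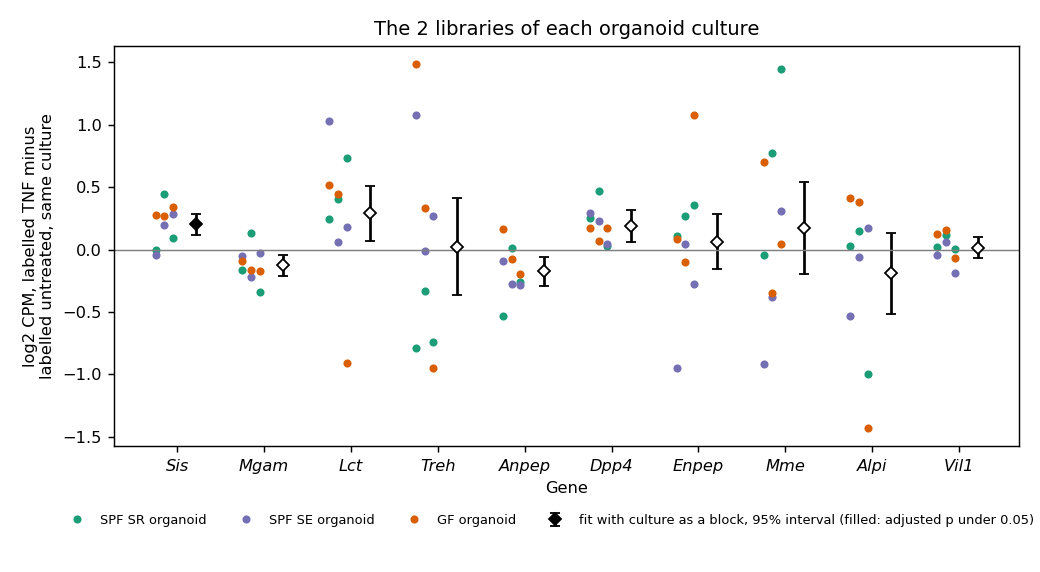
Log2 CPM of the library labelled TNF minus that labelled untreated within each organoid culture (coloured points) for the 10 genes, with the estimate and 95% interval of the fit with the culture as a block (diamonds, filled for an adjusted p under 0.05). Sis is the filled diamond at 0.20, and the points of Lct, Treh, Enpep, Mme and Alpi scatter most widely.

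Whether the label difference depended on the origin of the culture was tested next. The interaction, GF minus SPF, was called for 0 of 10 members by edgeR and DESeq2, beside 0.0% of 12640 genes, and 0 members had an unadjusted p under 0.05. Of all genes, 323 had an unadjusted p under 0.05 and DESeq2 called 1. The estimates ran from -0.29 for Mme to 0.38 for Treh, and that of Sis was 0.07 (95% interval -1.02 to 1.15). In m-ICc12, 0 of 8 testable members were called by edgeR and 0 by DESeq2, beside 0.11% of 11861 genes called by edgeR. DESeq2 called 46 of all genes in m-ICc12, and 556 had an unadjusted p under 0.05 in edgeR. Sis had an unadjusted p under 0.05 there (adjusted p = 0.996, edgeR). Its CPM was higher in the library labelled TNF in 3 of 3 pairs, by 1.55 on the log2 scale (SE 0.63). Its counts, the untreated label first, were 142 and 95 in M1, 160 and 176 in M2, and 59 and 110 in M3. In each pair the library labelled TNF also had the lower total, so label and depth cannot be told apart. Mme, the abundant member in this line, differed by 0.17 (95% interval -0.21 to 0.56).

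Other genes of the brush border gave a context. Of 18 further brush border enzymes, 15 were tested between organoids and m-ICc12, of which 9 were higher and 4 lower in organoids (median log2 difference 3.30), and 11 of 15 were higher and 1 lower against MEF (median 6.69). Of all genes tested, 31.6% were higher and 29.3% lower in organoids than in m-ICc12, and 34.6% and 32.6% than in MEF. The leading 3 by mean level included Naaladl1, a peptidase (log2 difference against m-ICc12 7.87), and Cpm, a carboxypeptidase. Cpm resembled Mme in being lower in organoids than in m-ICc12 (log2 difference -4.38, adjusted p = 1.34e-10), at 15.3 to 54.2 CPM against 536 to 715 CPM. The enzymes lower in organoids also included Folh1, Ggt1 and Nt5e. With the treatment label, 0 of 12 tested in organoids were called, also with the culture as a block, beside 1.39% and 3.28% of all genes.

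Of 22 genes of the microvillus cytoskeleton and its adhesion links, 14 were higher and 6 lower in organoids than in m-ICc12 (median log2 difference 2.42), and 20 were higher and 2 lower than in MEF (median 8.01). The shares over all genes were 31.6% higher and 29.3% lower against m-ICc12, and 34.6% and 32.6% against MEF. The leading 3 were Ezr, ezrin, which ties the membrane to actin (-1.11 against m-ICc12), the microvillar protocadherin Cdhr5 (4.35) and the linker Plec (-1.20). In the organoid comparison by treatment label 1 of 22 was called, Lcp1, an actin bundler usually found in leukocytes, which was lower in the library labelled TNF (log2 difference -0.68, SE 0.11, adjusted p = 0.000573). With the culture as a block Myo1d was called higher (0.20, adjusted p = 0.0360) and Anks4b lower (-0.32, adjusted p = 0.0483) besides. By label, 1.39% of all genes were called without the block and 3.28% with it. Between GF and SPF organoids 0 of 22 were called, beside 0.0325% of all genes.

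Of 17 intestinal transcription factors, 11 were higher and 3 lower in organoids than in m-ICc12 among 16 tested (median log2 difference 2.95), and 14 were higher and 1 lower than in MEF (median 8.60). Over all genes, 31.6% were higher and 29.3% lower than in m-ICc12, and 34.6% and 32.6% than in MEF. The leading 3 were Hnf4a (log2 difference against m-ICc12 3.04), the caudal homeobox gene Cdx1 (8.87) and the epithelial factor Elf3 (2.77), and the lower ones included Nr1h4 and Maf. By treatment label in organoids 0 of 16 were called, and with the culture as a block 1 was, Cdx1, which was lower in the library labelled TNF (log2 difference -0.19, adjusted p = 0.0162). The shares of all genes called were 1.39% without the block and 3.28% with it. Hnf4a varied little between organoid libraries, from 982 to 1177 CPM, while Sis ranged from 748 to 3623 CPM in the same libraries. Cdx1 and Gata4, of the same list as Hnf4a, had relatively wider ranges in organoids, as given above. Whether these factors follow Sis across cultures was not tested.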

How the data were processed

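RNA was sequenced on an Illumina instrument as single-end reads from poly-A selected TruSeq libraries, which the labels call stranded and the methods do not. The authors trimmed the reads with Trimmomatic and by 5 further bases at the 3′ end, aligned them with STAR (2.5.4b in the submitters' processing notes) to GRCm38 with Ensembl release 91 and counted them per gene with GenomicRanges according to the methods and with featureCounts according to the notes. The use of strand and of multiply aligned reads is not given in the sources used here. The deposited values are counts without normalization. Groups follow the sample labels.

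Symbols and exon lengths came from GENCODE vM21, which matched 22214 of 22524 identifiers. Genes entered a test when 50% or more of the libraries in 1 of the groups reached 10 counts. Each comparison was fitted alone with TMM factors and edgeR's quasi-likelihood F-test, as in the study, but called at a Benjamini-Hochberg adjusted p under 0.05 over all genes. The cell type and facility comparisons used libraries labelled untreated. CPM used TMM factors over all 27 libraries, with a prior count of 2 for log2. Counting intervals (95%, exact Poisson) and the floor of 3 counts cover counting error only. Correlations were tested by exact permutation over cultures, two-sided, adjusted over each family. Organoid pairs of the same culture come from the same mouse. Their deviations correlated between 0.0821 and 0.310, and in 9 of 9 cultures the nearest library was the partner. No 2 libraries held identical counts.

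The members, gene lists and tests were chosen with earlier results of these data known. Beyond the members, the text names the 3 list genes with the highest mean CPM, up to 4 called list genes for the treatment label and GF against SPF, the label checks, and the 3 genes most alike to each member. A few genes that this rule selects are not reported here. Alternatives were DESeq2, no TMM, all genes with at least 1 count, 1 fit over all libraries, the study's thresholds, the culture as a block, exchanged labels, summed libraries and leaving out each culture. The scripts were tested on simulated data. Tools were R 4.3.3, edgeR 4.0.16, DESeq2 1.42.0, Python 3.11.15, numpy 2.4.6, pandas 2.3.3 and scipy 1.17.1.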

Additional observations from a re-analysis of the deposited data

How the results depend on the processing

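Of the values of single members under the alternatives, 984 kept their direction and side of the threshold, 85 changed sign and 3 newly passed it, and of the counts 232 stayed within 1.5 times and 28 did not. The member calls between cell types held under each alternative run, except Mme against MEF as given above. Without TMM the median log2 difference of all genes between organoids and m-ICc12 moved by -0.12. Genes called between GF and SPF numbered 4, and 21 with DESeq2, 26 in 1 fit over all libraries, 7 with libraries summed, 313 by the study's rule (a change of 0.5 log2 units or more with an unadjusted p up to 0.05) and 2 to 5 leaving out 1 culture, with 2 without Z917, Z918 or Z919. Between SR and SE the 0 genes became 8 with DESeq2, 1 without TMM, 5 with all genes of at least 1 count, 2 in 1 fit, 1 with exchanged labels, 1 with summed libraries, 376 by the study's rule and 0 to 35 leaving out 1 culture, with 35 without Z909, 6 without Z912 and 1 without Z908. For the treatment label in organoids, the 168 genes became 397 with the replicate block, which called 1 member, 352 by the study's rule and 136 to 164 leaving out 1 culture. In m-ICc12 the 13 genes became 46 with DESeq2, of which 21 were higher against 2 of 13, 30 with all genes of at least 1 count, 26 in 1 fit, 6 with the replicate block, 445 by the study's rule, which also called 1 member, and 15 to 93 leaving out 1 pair, with 93 without M2. The interaction gave 1 gene with DESeq2. The cause of these shifts was not tested. The m-ICc12 pairs share only a number (correlation of deviations from -0.00667 to 0.0925, nearest to its own partner in 1 of 3), as do the m-ICc12 and MEF libraries, and the replicate block changed no member call other than Sis in organoids.

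Signs turned only in differences that missed the threshold. The log2 difference of Sis between m-ICc12 and MEF was 0.030 without TMM, 0.025 in 1 fit, 1.53 with exchanged labels, 0.50 summed, 0.0086 with the replicate block and -0.36 to 0.50 leaving out 1 library. Between GF and SPF, exchanged labels gave Mgam -0.023, Treh 0.055, Mme -0.088 and Vil1 0.014, and summed libraries gave Mgam -0.0071 and Mme -0.0043. Leaving out 1 culture gave Alpi -0.69 to 0.74, Dpp4 -0.32 to 0.13, Enpep -1.29 to 0.48, Lct -1.92 to 0.17, Mgam -0.24 to 0.21, Mme -0.78 to 0.57, Sis -0.80 to 0.24, Treh -1.29 to 0.088 and Vil1 -0.30 to 0.035. Between SR and SE, exchanged labels gave Mme 0.055 and Enpep 0.23, and leaving out 1 culture gave Anpep -0.84 to 0.019, Dpp4 -0.44 to 0.018, Enpep -0.83 to 0.11, Mgam -0.18 to 0.021 and Treh -0.56 to 0.20. Exchanging the labels mirrors the label comparison by construction, to -0.23 for Sis, -0.29 for Lct, -0.061 for Alpi, 0.16 for Anpep, 0.12 for Mgam, -0.18 for Dpp4, -0.079 for Treh, -0.17 for Mme, -0.0020 for Enpep and -0.016 for Vil1 in organoids, and to -1.55 for Sis, -0.56 for Lct, -0.62 for Anpep, -0.82 for Mgam, -0.64 for Dpp4, -0.17 for Mme, -1.69 for Enpep and -0.0063 for Vil1 in m-ICc12. The replicate block gave -0.19 for Alpi in organoids and -0.38 for the interaction of Lct. In m-ICc12, Vil1 was -0.070 without TMM and -0.00021 with all genes of at least 1 count.

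Leaving out 1 culture also turned signs of the label comparison in organoids for Alpi (-0.076 to 0.12), Enpep (-0.054 to 0.059), Treh (-0.0052 to 0.15) and Vil1 (-0.0051 to 0.052), in m-ICc12 for Enpep (-0.022 to 2.17), Mme (-0.10 to 0.40) and Vil1 (-0.26 to 0.28), and of the interaction for Alpi (-0.25 to 0.42), Enpep (-0.060 to 0.31), Lct (-0.44 to 0.18), Mgam (-0.078 to 0.017) and Mme (-0.54 to 0.20). Depth limits Lct, Treh and Alpi in the reference cells, where they had few counts. The relations with marker sums, the limit for separate ranges and leaving out cultures with the block were chosen after seeing the data.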
